A study of Mus musculus with 6 samples.

Results

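Water channels and sodium pump subunits were measured in cells sorted from mouse kidney in a study of Trf1, the gene of a telomere-binding protein of the shelterin complex. Of 9 genes named for this account, which are Aqp1, Aqp2, Aqp3, Aqp6, Aqp7, Aqp11, Atp1b1, Fxyd2 and Avpr2, those with a row in the table of normalized counts were taken. They were 8 of the 12125 genes listed, 6 of them aquaporins and 2 of them sodium pump subunits. Avpr2, the vasopressin V2 receptor, was not analysed here. The genes were chosen by name, with earlier results of these data known.

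Aquaporins are membrane channels that let water, and in some members glycerol, cross the cell membrane, and each part of the nephron carries its own. Aqp1 serves the proximal tubule and the thin descending limb of the loop of Henle, while Aqp2 sits in the apical membrane of the principal cells of the collecting duct, where vasopressin acts through cAMP to raise its abundance and to move it to the membrane. Aqp3 and Aqp4 let the same water out on the basolateral side, Aqp6 lies in vesicles of acid-secreting intercalated cells, Aqp7 carries glycerol and water in the late proximal tubule, and Aqp11 lies in the endoplasmic reticulum of proximal tubule cells. The sodium pump, Na,K-ATPase, provides the gradient for most tubular transport. In the kidney its beta subunit is encoded mainly by Atp1b1 and its regulatory gamma subunit by Fxyd2.

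There were 2 groups of 3 libraries. The control mice were Trf1+/+ and the others Trf1flox/flox, and all of them carried Col1a2-CreERT2, a Cre recombinase that tamoxifen activates and that the Col1a2 promoter drives, and 1 allele of a Cre-dependent reporter of the Katushka fluorescent protein (KFP+/t Cre+/t). Male and female mice of 6 to 8 weeks of age at the start received tamoxifen intraperitoneally 3 times a week for 8 weeks, the controls included. Cells were stained for CD29 and the reporter, and each library was made from 500 sorted cells with poly(A)-primed, PCR-amplified and non-stranded chemistry. The gate of the sequenced cells is not given in the sources used here, nor do the labels tie a library to 1 mouse, so p-values measure the spread between these libraries.

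The cells are labelled as fibroblasts. Of 10 fibroblast markers named, 3 had a row and 7 were not analysed here. Col1a2, the gene whose promoter drives Cre, had at most 2 reads in any library. The 3 markers together (Col1a2, Dcn and Fn1) came to between 1.66 and 105 normalized counts in Trf1+/+ and between 15.5 and 102 in Trf1flox/flox libraries. The sum of 11 proximal tubule markers lay between 19240 and 130507 over the 6 libraries. The label is therefore not borne out by its defining markers, and the material is called here by its sort, as CD29- and KFP-stained kidney cells. Terf1, which encodes TRF1, had 0.891 normalized counts, a single read, in the library labelled Trf1+/+ replicate 1. It had 253 and 235 in replicates 2 and 3, so at this gene that library goes against its label. In the same library 34.4% of all tested genes had at most 3 reads, and Itgb1, which encodes CD29, had 5 reads. The genotype of that library was not tested. The median over the genes of that library was 13.4 normalized counts, while the remaining 5 libraries had medians of 118 to 148. In Trf1flox/flox replicates 1, 2 and 3 Terf1 had 110.0, 7.65 and 12.4 normalized counts. The library labelled Trf1flox/flox replicate 1 thus kept 128 reads of Terf1, fewer than Trf1+/+ replicates 2 and 3 and more than the other libraries of its label. The listed genes held 10263382 to 12248797 reads per library, and 1 read was worth 0.689 to 1.09 normalized counts. The floor was set at 3 reads per library and gene, and as reads carried no molecular identifiers this floor covers counting error only.

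The sequences upstream of Aqp2 and Aqp3 are shown because these channels serve the same cell, apical and basolateral, and their levels differed between libraries. Each run holds the 250 bases before the transcription start of RefSeq on GRCm38.p6, written 5′ to 3′ on the strand of the gene. Aqp2 is on the plus strand (chr15:99578806-99579055) and Aqp3 on the minus strand (chr4:41098184-41098433). Capitals mark 3 motifs searched on both strands, none of which overlaps another here. They are the core of the cAMP response element (TGACG or CGTCA), the GATA site (AGATAA or TTATCT) and the TATA box (TATAAA or TTTATA). The GC box (GGGCGG or CCGCCC) was searched as well and is not marked.
Aqp2: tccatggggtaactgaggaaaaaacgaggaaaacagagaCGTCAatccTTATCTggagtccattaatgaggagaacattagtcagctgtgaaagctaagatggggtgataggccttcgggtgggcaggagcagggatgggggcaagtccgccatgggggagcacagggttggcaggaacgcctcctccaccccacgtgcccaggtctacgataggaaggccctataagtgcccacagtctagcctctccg
Aqp3: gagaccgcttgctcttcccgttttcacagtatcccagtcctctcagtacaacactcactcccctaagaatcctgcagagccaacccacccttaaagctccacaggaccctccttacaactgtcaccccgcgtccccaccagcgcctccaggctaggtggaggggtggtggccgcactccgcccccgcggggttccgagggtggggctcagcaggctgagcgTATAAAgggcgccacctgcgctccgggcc
The Aqp2 window held a cAMP response element core at position -211 and a GATA site at position -202 from the start. Of all 32851 promoter windows of this length, 17.8% held such a core and 9.99% a GATA site. The Aqp3 window held a TATA box at position -29, as 12.4% of all windows did, and neither of the other marked motifs. It also held a GC box at position -73, as 32.7% of all windows did. Windows were found for 7 of the 8 genes. Among them only Aqp2 held the core, and Aqp7 also held a GATA site, at position -132. A match describes the letters and not a bound site.

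The 2 sodium pump subunits were well above the floor and near one level in every library, and the 6 aquaporins were not. Atp1b1 (ENSMUSG00000026576, chromosome 1, 164437109 to 164458355 on GRCm38, minus strand) had 18777, 21676 and 14061 normalized counts in Trf1+/+ replicates 1, 2 and 3. In Trf1flox/flox replicates 1, 2 and 3 it had 20907, 13687 and 11549. The highest value was 1.88 times the lowest, and the groups overlapped. Fxyd2 (ENSMUSG00000059412, chromosome 9, 45399669 to 45410278, plus strand) had 115210, 91025 and 44918 normalized counts in Trf1+/+ against 64632, 50694 and 85408 in Trf1flox/flox libraries. On the deposited scaling it peaked in the library labelled Trf1+/+ replicate 1, at 2.56 times its lowest value, in Trf1+/+ replicate 3. Both extremes thus lay in the control group, but this depends on the scaling. Scaling to the same upper quartile multiplies the library labelled Trf1+/+ replicate 1 by 0.577 and Trf1flox/flox replicate 3 by 1.39. By normalized count, with no correction for length, Fxyd2 ranked between 8 and 14 among all listed genes in each library and Atp1b1 between 24 and 55. The 6 aquaporins varied more widely than the pump subunits, from 17.5-fold for Aqp1 upwards between the highest and the lowest library. On the log2(normalized count + 1) scale the range was 4.11 for Aqp1 and 6.19 to 14.04 for the other aquaporins. The median range of all tested genes was 5.95, so Aqp1 varied less than the median gene.

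**Figure D1:**
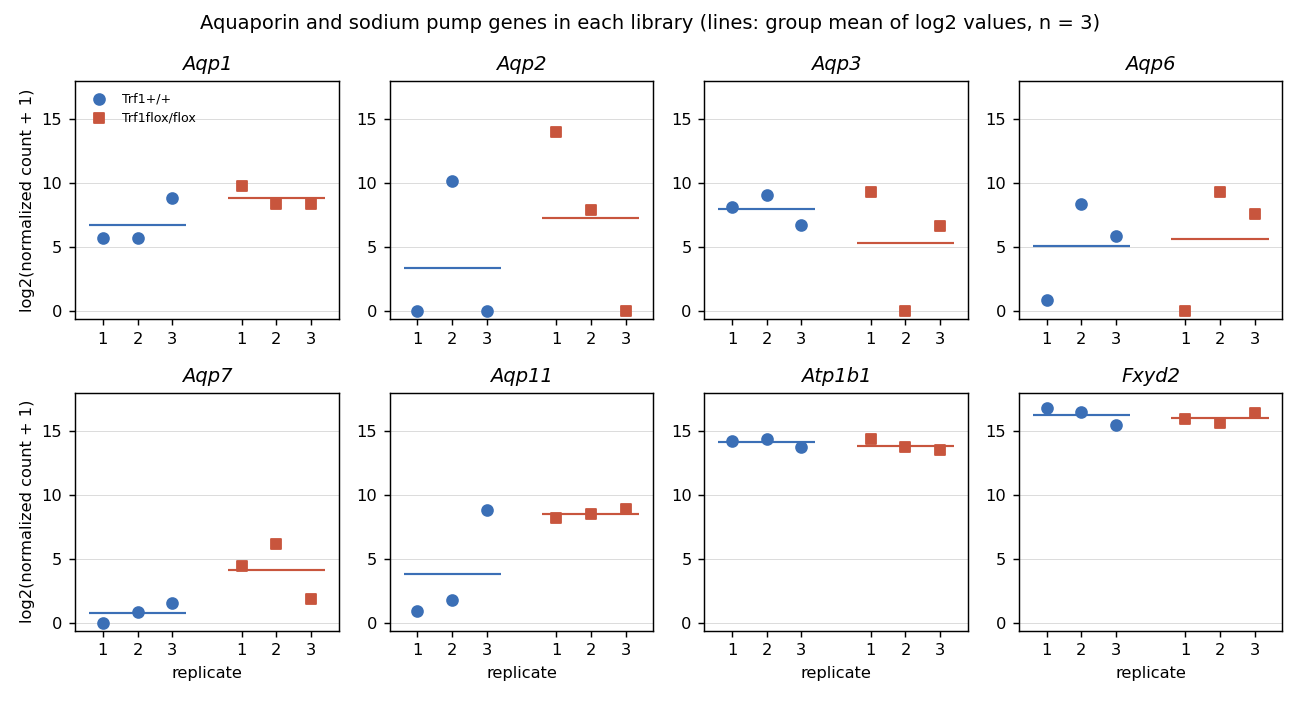
Each panel plots 1 gene, with the replicate on the horizontal axis and log2(normalized count + 1) on the vertical axis, as circles for Trf1+/+ and squares for Trf1flox/flox libraries, and lines at the group mean of the log2 values (n = 3). Atp1b1 and Fxyd2 lie level across the 6 libraries, with ranges of 0.91 and 1.36 on this scale, while Aqp2 spans 14.04, from 0 in 3 libraries to its highest value in Trf1flox/flox replicate 1.

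Aqp2 (ENSMUSG00000023013, chromosome 15, 99579055 to 99584547, plus strand), the channel that vasopressin regulates, was listed at 0, 1144 and 0 normalized counts in Trf1+/+ replicates 1, 2 and 3. In Trf1flox/flox replicates 1, 2 and 3 it had 16844, 242 and 0. It was thus among the most abundant genes of a single library, where it ranked 33rd by normalized count, and without a read in 3 others, of which 2 were controls and 1 was Trf1flox/flox. A count of 0 allows up to 2.67 and 2.96 normalized counts in the 2 control libraries and 2.07 in the Trf1flox/flox library, so the highest library lay at least 8148-fold above the lowest. The standard deviation within the groups was 6.48 on the log2 scale. This placed Aqp2 at percentile 99.99 of all tested genes, whose median was 2.17.

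Aqp3 (ENSMUSG00000028435, chromosome 4, 41092722 to 41098183, minus strand), which releases that water to the interstitium, did not follow Aqp2. It had 279.7, 534 and 108 normalized counts in Trf1+/+ against 655, 0 and 103 in Trf1flox/flox libraries. It was present in all 3 libraries without Aqp2 reads, and it was at 0 in Trf1flox/flox replicate 2, where Aqp2 had 242. Per kb of exon, the level of Aqp2 was 2.76 times that of Aqp3 in Trf1+/+ replicate 2 and 33.2 times in Trf1flox/flox replicate 1. Aqp4, the other basolateral water channel of principal cells, was listed at 0, 149 and 0 in Trf1+/+ and at 424, 0 and 51.0 in Trf1flox/flox libraries. Of 6 further aquaporin genes named, Aqp4 was the 1 analysed.

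The other markers of principal cells gave a mixed picture of the same libraries. Fxyd4, a FXYD regulator of the pump in the collecting duct, had 0.891, 499 and 1.97 normalized counts in Trf1+/+ against 1083, 315 and 78.6 in Trf1flox/flox libraries. It was at the floor in the 2 control libraries where Aqp2 was at 0. The sum of the 7 principal cell markers with a row (of 9 named, none of them a gene of this account) lay between 5371 and 9101 in Trf1+/+ and between 3965 and 12956 in Trf1flox/flox libraries. Most of it came from Kcnj1, a potassium channel that the thick ascending limb also expresses. Of these 7 markers, 5, 3 and 3 were at the floor in Trf1+/+ replicates 1, 2 and 3, and 0, 3 and 1 in Trf1flox/flox replicates 1, 2 and 3. Trf1flox/flox replicate 1, with the highest Aqp2, was thus the library in which none of them was at the floor. The part of these cells in the Aqp2 values was not tested. In libraries of bulk RNA, fewer cells of a type and less RNA per cell cannot be told apart.

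Aqp6 (ENSMUSG00000043144, chromosome 15, 99601400 to 99605477, plus strand), the vesicular channel of intercalated cells, had 0.891, 344 and 60.1 normalized counts in Trf1+/+ against 0, 632 and 192 in Trf1flox/flox libraries. It was highest in Trf1flox/flox replicate 2 and Trf1+/+ replicate 2, and at the floor in replicate 1 of both groups. Foxi1, the transcription factor of intercalated cells, had 146, 861 and 47.3 normalized counts in Trf1+/+ against 0, 790 and 256 in Trf1flox/flox libraries. The sum of the 7 intercalated cell markers was 9245, 13120 and 1396 in Trf1+/+ and 1174, 10784 and 2207 in Trf1flox/flox libraries. It was highest in the same 2 libraries as Aqp6, and it was also high in the library labelled Trf1+/+ replicate 1, where Aqp6 had a single read. The part of these cells in the Aqp6 values was not tested. In Trf1flox/flox replicate 1 Aqp2 was at its highest and Aqp6 and Foxi1 were at 0.

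**Figure D2:**
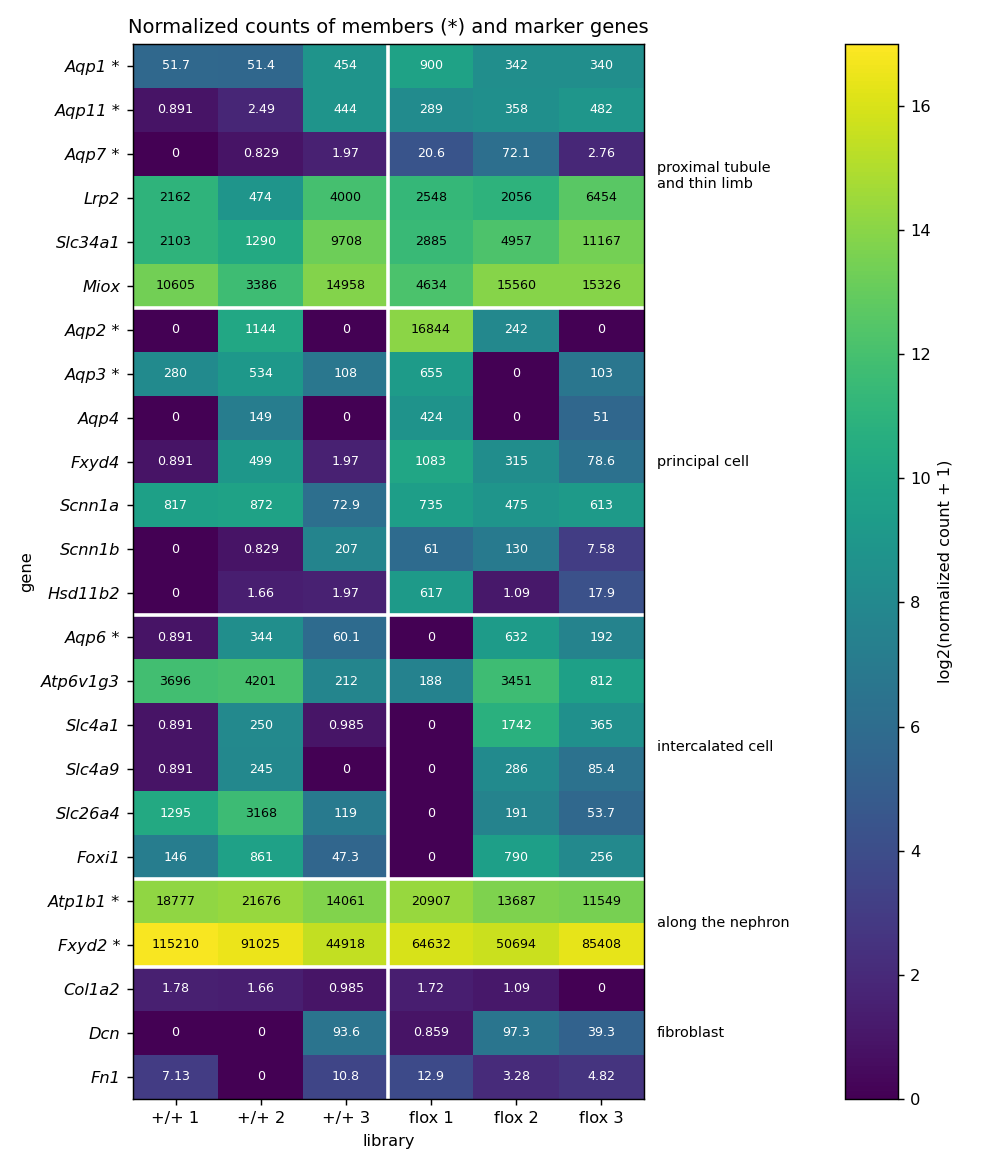
The heat map shows normalized counts of the 8 genes (marked with an asterisk) and of marker genes in the 6 libraries, with colour on the log2(normalized count + 1) scale and the normalized count printed in each cell. Aqp2 reaches 16844 in Trf1flox/flox replicate 1, where Aqp6 and Foxi1 are at 0, while Atp1b1 and Fxyd2 are high in every column and the fibroblast gene Col1a2 is at most 1.78.

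Aqp1 (ENSMUSG00000004655, chromosome 6, 55336432 to 55348555, plus strand), the constitutive water channel of the proximal tubule, had 51.7, 51.4 and 454 normalized counts in Trf1+/+ libraries. It had 900.5, 342 and 340.4 in Trf1flox/flox libraries. Of the 3 control libraries 2 lay below all Trf1flox/flox libraries, and Trf1+/+ replicate 3 lay above 2 of them. The proximal tubule marker sums were 110021, 19240 and 85677 in Trf1+/+ and 27481, 73906 and 130507 in Trf1flox/flox libraries, so the library labelled Trf1+/+ replicate 1 had a high sum and a low Aqp1, and Trf1flox/flox replicate 1 a low sum and the highest Aqp1. Red blood cells also carry Aqp1, and the suspensions were treated with an erythrocyte lysis buffer before the sort. The sum of 5 erythroid genes was 121 normalized counts in Trf1flox/flox replicate 1, the lowest of the 6 libraries, and 52403 in Trf1flox/flox replicate 3, the highest. The part of proximal tubule cells and of red blood cells in the Aqp1 values was not tested.

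Aqp11 (ENSMUSG00000042797, chromosome 7, 97724006 to 97738289, minus strand), the intracellular channel of the proximal tubule, had 0.891, 2.49 and 444 normalized counts in Trf1+/+ against 289, 358 and 482 in Trf1flox/flox libraries. It was at the floor in the same 2 control libraries in which Aqp1 was low, and in Trf1+/+ replicate 3 it stood at the level of the Trf1flox/flox libraries. One of those 2 controls is the library labelled Trf1+/+ replicate 1, in which 34.4% of all tested genes were at the floor. In Trf1+/+ replicate 2 the share was 11.2%.

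Aqp7 (ENSMUSG00000028427, chromosome 4, 41033074 to 41048139, minus strand), the glycerol and water channel of the late proximal tubule, had the fewest reads of the 8 genes. It had 0, 1 and 2 reads in Trf1+/+ and 24, 66 and 4 reads in Trf1flox/flox libraries, or 0, 0.829 and 1.97 against 20.6, 72.1 and 2.76 normalized counts. All 3 Trf1flox/flox libraries lay above all 3 controls, by less than 1 normalized count between the nearest pair. From the pooled reads, 94 against 3, the ratio after size factors was 29.7 (exact 95% interval 9.85 to 147, counting error only). Of the 94 reads, 66 were in Trf1flox/flox replicate 2, and the ratio was 11.9 without that library and 48.3 without Trf1flox/flox replicate 3. Aqp7 did not pass the filter on low values and was not tested in the main fit. Of the 2159 genes that did not pass, 8.11% had groups that did not overlap and 5.79% had all Trf1flox/flox libraries above all controls. Trac, the single T cell marker of 5 named that had a row, was separated in the same way, at 0 in the controls and at 172, 216 and 61.3 in Trf1flox/flox libraries, and its part in the Aqp7 values was not tested.

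The genotypes were then compared in 1 fit over all genes. Values were taken as log2(normalized count + 1), the scale of the fold changes given here, and fitted with limma over 9966 genes, those that reached 10 normalized counts in 3 or more libraries. Of the 7 genes tested, 4 were higher in Trf1flox/flox (Aqp1, Aqp2, Aqp6 and Aqp11) and 3 were lower (Aqp3, Atp1b1 and Fxyd2), against 55.9% higher and 44.1% lower among all tested genes. None of the 7 passed at an adjusted p under 0.05 in limma, and none did at an unadjusted p under 0.05, which 3.13% of all tested genes reached (2.1% higher and 1.03% lower). No gene at all passed at an adjusted p under 0.05 in limma (0.0%) or in edgeR (0.0%), and 1.97% fell under 0.05 unadjusted in edgeR. DESeq2 called 58 genes (0.604%) and none of the 7, and it gave no p-value for Aqp2. None of the 7 had groups that did not overlap, against 8.68% of all tested genes (5.35% higher and 3.33% lower). Their median log2 fold change was 0.54 and that of all tested genes 0.20, and the former lay between -0.17 and 1.34 over the alternatives, the highest with no filter, which adds Aqp7.

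Aqp11 had the largest difference in limma. Normalized counts averaged 149 ± 256 in the Trf1+/+ and 377 ± 98.1 in the Trf1flox/flox libraries (SD, n = 3 each). The log2 fold change was 4.69 (standard error 2.27, 95% confidence interval -0.27 to 9.65, adjusted p = 0.970 from limma), and it was 1.32 in edgeR, which works on the reads. Aqp1 had means of 186 ± 233 and 528 ± 323 normalized counts (SD, n = 3 each). Its log2 fold change was 2.13 (standard error 1.17, interval -0.41 to 4.68, adjusted p = 0.970 from limma). Without Trf1+/+ replicate 3 the controls lay below all Trf1flox/flox libraries for both genes, where 25.5% of all genes did not overlap. The log2 fold changes were then 7.17 and 3.17, and neither passed at an adjusted p under 0.05 in limma. Without the library labelled Trf1flox/flox replicate 1, whose Terf1 was the highest of its label, the log2 fold change of Aqp1 was 1.67 and that of Aqp11 4.86.

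The intervals were widest for Aqp2 and Aqp6 of the collecting duct. The log2 fold change of Aqp2 was 3.93 (standard error 3.72, interval -4.19 to 12.06, adjusted p = 0.970 from limma). It could not be tested without Trf1+/+ replicate 2, Trf1flox/flox replicate 1 or Trf1flox/flox replicate 2, since it then failed the filter. The means of Aqp2 were 381 ± 661 and 5695 ± 9656 normalized counts (SD, n = 3 each), so the SD exceeded the mean in both groups. The log2 fold change of Aqp3 was -2.64 (standard error 2.23, interval -7.50 to 2.23, adjusted p = 0.970 from limma), which rested on its 0 in Trf1flox/flox replicate 2 and was 0.04 without that library. On the reads it was -0.28 in edgeR and -0.27 in DESeq2, with means of 307 ± 214 and 253 ± 352 normalized counts (SD, n = 3 each). For Aqp6 it was 0.54 (standard error 2.97, interval -5.94 to 7.01, adjusted p = 0.992 from limma). These intervals allow large changes in either direction.

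For the pump subunits the intervals were the narrowest of the genes tested, with a width that rests on the variance trend. Atp1b1 had means of 18171 ± 3843 and 15381 ± 4904 normalized counts (SD, n = 3 each). Its log2 fold change was -0.26 (standard error 0.39, interval -1.12 to 0.59, adjusted p = 0.981 from limma). The interval runs from 0.46 to 1.51 times the Trf1+/+ level. Fxyd2 had means of 83718 ± 35711 and 66911 ± 17469 normalized counts (SD, n = 3 each). The log2 fold change was -0.25 (standard error 0.46, interval -1.25 to 0.75, adjusted p = 0.983 from limma), or 0.42 to 1.68 times the Trf1+/+ level. After scaling to the same upper quartile both log2 fold changes turned to 0.01 and 0.03. Without the variance trend the standard errors were 0.76 for Atp1b1 and 0.80 for Fxyd2, so the intervals would be wider. With the filter at 50 normalized counts they were 0.46 and 0.63. The distal convoluted tubule is a segment rich in the pump. The sum of 5 of its markers lay between 40944 and 63471 in Trf1+/+ and between 18150 and 32218 in Trf1flox/flox libraries and did not overlap. Slc12a3, Calb1 and Klhl3 were each lower without overlap, beside 3.33% of all tested genes, while Pvalb and Trpm6 overlapped. The part of this segment in the pump values was not tested. Of the 3081 exon bases of Atp1b1, 575 overlap exons of Nme7 on the opposite strand, and reads within them cannot be assigned to either gene in non-stranded libraries.

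**Figure D3:**
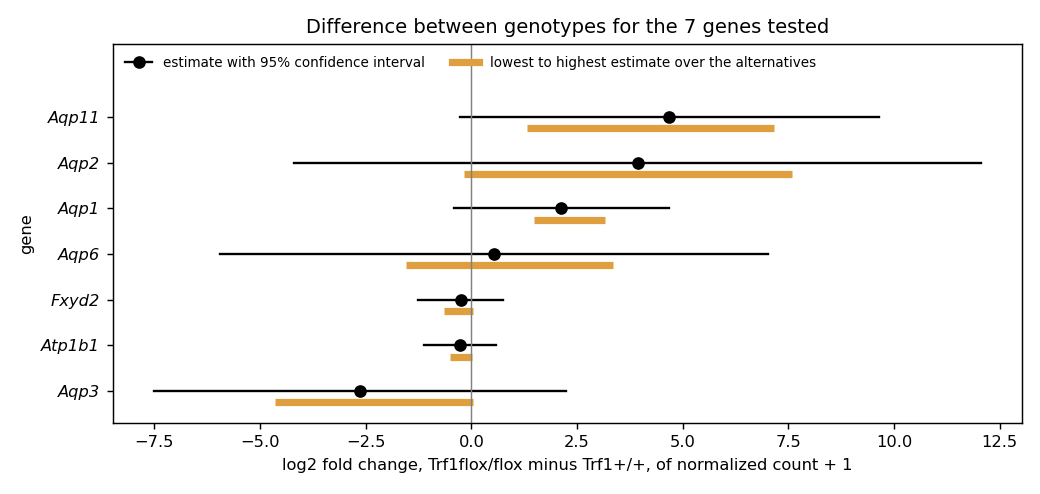
The log2 fold change of Trf1flox/flox minus Trf1+/+ (horizontal axis, of normalized count + 1) is shown for the 7 genes tested, with points for the limma estimate, black lines for its 95% confidence interval and orange bars for the lowest to highest estimate over the alternatives. All 7 intervals include 0, and those of Atp1b1 (-1.12 to 0.59) and Fxyd2 (-1.25 to 0.75) are the narrowest.

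Levels of different genes were compared as normalized counts per kb of exon, with all annotated exons of a gene merged. Fxyd2 had the highest median over the 6 libraries, 18732 per kb, followed by Atp1b1 with 5329. Fxyd2 was above Atp1b1 in 6 of 6 libraries, and their ranges did not overlap. Atp1b3, an alternative beta subunit, followed with 329 per kb, and its range did not overlap that of Atp1b1. The aquaporins followed in the order Aqp1 with 130 per kb, Aqp3 with 106, Aqp2 with 85.1, Aqp6 with 52.1, Aqp11 with 34.4 and Aqp7 with 0.836. No neighbours among these aquaporins differed beyond their ranges, and with the length of the principal transcript Aqp11 (86.6 per kb) came before Aqp2.

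Within the pump, the ratio of the gamma to the beta subunit varied between libraries more than Atp1b1 (1.88-fold) and less than Fxyd2 (2.56-fold). Fxyd2 stood at 4.72, 3.23 and 2.46 times Atp1b1 per kb in Trf1+/+ and at 2.38, 2.85 and 5.69 times in Trf1flox/flox libraries. The ratio was highest in Trf1flox/flox replicate 3 and the library labelled Trf1+/+ replicate 1, its means of 3.47 ± 1.15 and 3.64 ± 1.79 (SD, n = 3 each) differed by less than their spread, and it varied by 2.39-fold over the 6 libraries. This ratio depends on the length used for Fxyd2, 4005 bases of merged exons or 632 bases of its principal transcript, and with the latter length of each gene it was 12.6 to 30.2. Atp1b3 had 369, 1167 and 1045 normalized counts in Trf1+/+ against 1583, 502 and 525 in Trf1flox/flox libraries, and Atp1b1 stood at 10.2 to 39.5 times its level per kb. Fxyd1, another FXYD regulator, had 0, 369 and 55.2 normalized counts in Trf1+/+ against 93.7, 0 and 14.5 in Trf1flox/flox libraries. Of 12 further pump and FXYD genes named, 5 had a row and 3 were tested (Atp1b3, Fxyd1 and Fxyd4), with 1 higher and 2 lower and none past an unadjusted p of 0.05 in limma.

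**Figure D4:**
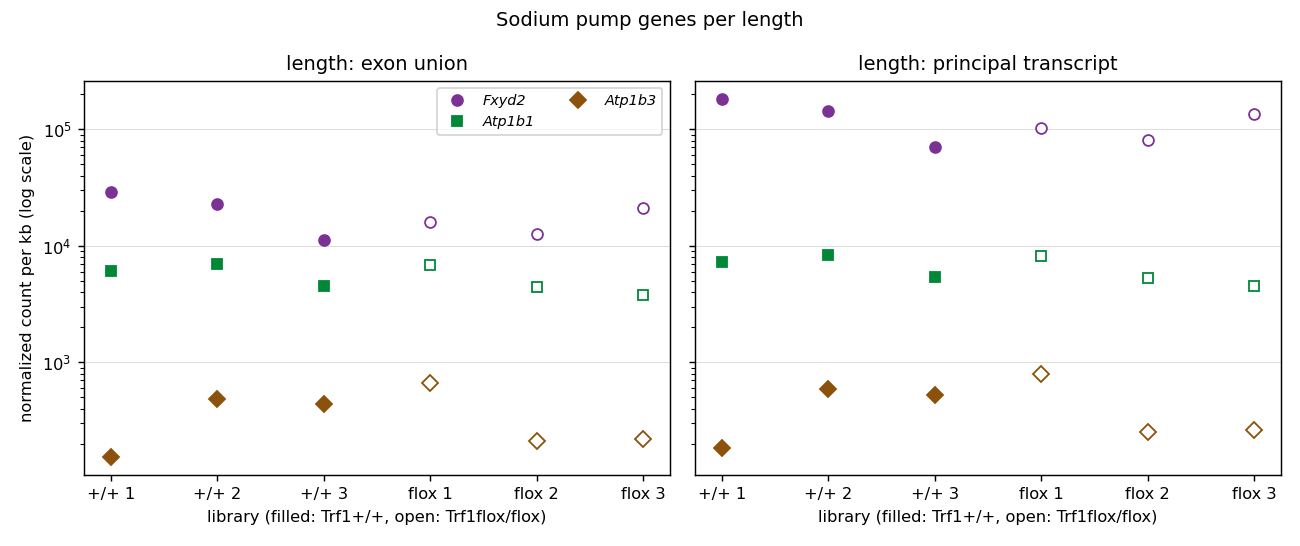
Normalized counts per kb (vertical axis, log scale) of Fxyd2, Atp1b1 and Atp1b3 are plotted for each library, with filled symbols for Trf1+/+ and open symbols for Trf1flox/flox, using merged exons (left) and the principal transcript (right) as length. The 3 genes keep their order in all 6 libraries under both lengths, with medians of 18732, 5329 and 329 per kb of merged exons.

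Similarity of pattern was measured as the root mean square difference between genes in log2(normalized count + 1) over the 6 libraries, after each gene was centred on its own mean. The measure grows with the spread of the genes compared, so it is given beside the spread of each gene about its own mean. The spread was 0.34 for Atp1b1 and 0.48 for Fxyd2, and the pair differed by 0.47, about as much as the spread of Fxyd2. It was 1.56 for Aqp1 and 3.43 for Aqp11, and these differed by 2.05, less than the spread of Aqp11. Genes of unequal spread differ by this measure even where they rise and fall together. The value for Aqp1 and Aqp11 therefore does not show that their patterns were unlike. With spreads of 5.64, 3.15 and 3.62 for Aqp2, Aqp3 and Aqp6, Aqp2 differed from Aqp3 by 6.22 and from Aqp6 by 7.02. Both values exceed the spread of any of the 3. Genes with unrelated patterns also differ by more than either spread, so this does not show opposed patterns. Of all tested genes, those nearest to Atp1b1 were Ezr (0.08) and Dld (0.08), those nearest to Fxyd2 were Mcee (0.12) and Cox4i1 (0.14), and those nearest to Aqp1 were Hoxa9 (0.28) and Mark3 (0.33). Aqp11 was nearest to C2cd2l (0.18) and Smim6 (0.37), Aqp3 to Usp40 (0.37) and Abhd5 (0.50), Aqp6 to Ankrd9 (0.29) and Rhbg (0.49), and Aqp2 to Mettl4 (2.25) and Rad9b (2.28). These values are not ranked between members, whose spreads differ.

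The genes that act on Aqp2 were described from lists, after the other vasopressin and oxytocin genes. Avpr1a encodes the vasopressin V1a receptor, not the V2 receptor, and is not placed upstream of Aqp2 here. Avpr1a had 757, 1235 and 157 normalized counts in Trf1+/+ against 0, 788 and 130 in Trf1flox/flox libraries. Its log2 fold change was -3.50 (standard error 2.11, adjusted p = 0.970 from limma). Of 5 further vasopressin and oxytocin genes named it was the 1 with a row. Of 30 genes of cAMP signalling from the V2 receptor, 23 had a row and 21 were tested, of which 12 were higher and 9 lower, with a median log2 fold change of 0.49. A single gene was under an unadjusted p of 0.05 in limma, in the direction in which 1.03% of all tested genes were. It was Pde4d, a phosphodiesterase that breaks down cAMP, with 773, 302 and 1066 normalized counts in Trf1+/+ against 143, 63.4 and 108 in Trf1flox/flox libraries. It was also the 1 gene of 21 whose groups did not overlap, beside 8.68% of all tested genes (3.33% lower). Its log2 fold change was -2.65 (standard error 0.98, interval -4.79 to -0.50, adjusted p = 0.970 from limma). The most abundant of the list were Prkar1a, a regulatory subunit of protein kinase A (log2 fold change 0.57), Pkig, an inhibitor of that kinase (-0.74), and Gnas, the stimulatory G protein (-0.84), none of them past an unadjusted p of 0.05.

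Of 26 genes that carry Aqp2 to and from the membrane, 25 had a row and 24 were tested, with 11 higher, 13 lower, a median log2 fold change of -0.18 and none past an unadjusted p of 0.05 in limma. The groups did not overlap for Rhoa, which was higher and whose protein restrains the insertion of Aqp2 into the membrane, nor for Snap23, which was lower and encodes a membrane fusion protein. These 2 of 24 genes stand beside 8.68% of all tested genes without overlap, and both were named after their values were seen. Rhoa had 1005, 1057 and 1088 normalized counts in Trf1+/+ against 2210, 1211 and 1174 in Trf1flox/flox libraries, and Snap23 had 1901, 962 and 720.3 against 216, 679 and 675. The most abundant were the clathrin-uncoating chaperone Hspa8 (log2 fold change -0.32), the vesicle protein Vamp8 (0.28) and the endosomal GTPase Rab7 (-0.08). Each of these 3 had at least 1417 normalized counts in every library.

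Of 14 genes of the osmotic response, 13 had a row and 10 were tested, with 7 higher, 3 lower, a median log2 fold change of 0.51 and none past an unadjusted p of 0.05 in limma. Ranbp3l had 6.23, 278 and 424 normalized counts in Trf1+/+ against 3664, 1405 and 137 in Trf1flox/flox libraries, peaking in the library of highest Aqp2. Slc5a3, the myo-inositol transporter, had a log2 fold change of 0.79 and the small heat shock protein Cryab of -0.13. Sgk1, a kinase that responds to aldosterone and cell volume, was the 1 gene of 10 whose groups did not overlap, beside 8.68% of all tested genes, and it was named after its values were seen. It had 2.67, 0.829 and 61.1 normalized counts in Trf1+/+ against 140.1, 711 and 131 in Trf1flox/flox libraries (log2 fold change 4.99, standard error 2.32, adjusted p = 0.970 from limma).

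Of 22 transcription regulators of collecting duct genes, 21 had a row and 20 were tested, with 12 higher, 8 lower, a median log2 fold change of 0.66 and none past an unadjusted p of 0.05 in limma. The most abundant were Hoxd8 (log2 fold change -0.45), Tfcp2l1 (0.72) and Tfap2b (-0.32). Tfcp2l1 had 777, 1970 and 1823 normalized counts in Trf1+/+ against 1886, 3169 and 2097 in Trf1flox/flox libraries, so it was well detected in libraries where Aqp2 was at 0. Emx1 and Hoxb7, named after their values were seen, were lower in all Trf1flox/flox than in all Trf1+/+ libraries, which makes 2 of 20 genes without overlap beside 8.68% of all tested genes (3.33% lower). Hoxb7 had 1224, 335 and 505 normalized counts in Trf1+/+ against 125, 248 and 202 in Trf1flox/flox libraries.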

How the data were processed

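RNA from 500 sorted kidney cells per library was sequenced in 3 Trf1+/+ and 3 Trf1flox/flox libraries. Per the labels and the methods of the study, the authors aligned reads with TopHat2 2.0.10 (Bowtie 1.0.0, SAMtools 0.1.19), counted them per gene with HTSeq 0.6.1 and scaled the counts with DESeq2. FastQC 0.11.7 is also named. The methods name GRCm38 and the labels GRCm39. Coordinates and lengths here are from GENCODE M21 on GRCm38, which matched 98.0% of the symbols, and none were taken from the deposited table.

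The deposited values are a signal, namely counts divided by 1 size factor per library. All values (100%) were whole multiples of 1 read (tolerance 0.01), so reads were recovered for count tests and intervals. These held 10263382 to 12248797 reads per library, and no depth outside the listed genes is known. Every sample column was matched to its sample by its title.

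Genotypes were compared with limma 3.58.1 (R 4.3.3, lmFit and eBayes with a variance trend, two-sided, Benjamini-Hochberg over 9966 genes) on log2(normalized count + 1), keeping genes that reached 10 normalized counts in 3 or more libraries. The trend was set after the data were seen. An exact permutation test of 3 against 3 libraries cannot give a p below 0.1, so none was run. Alternatives were pseudocounts of 0.5 and 5, no filter, a filter at 50, upper quartile scaling, array weights, no variance trend, edgeR 4.0.16, DESeq2 1.42.0 and leaving out each library. The fits were run on simulated counts with far less spread than these libraries, which does not show how they perform here. Members and gene lists were chosen with earlier results of these data known. All members were named. Of each related list the 3 genes with the highest mean and any with an unadjusted p under 0.05 were named, with 2 genes most like each tested member. A further gene of the pump list is not reported here.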

Additional observations from a re-analysis of the deposited data

How the results depend on the processing

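Over 15 alternatives, of which 6 leave out a library, none of the 7 genes reached an adjusted p under 0.05, the lowest being 0.5995 from limma for both Aqp1 and Aqp11 without Trf1+/+ replicate 3. No alternative called a gene over the whole table except DESeq2, which called 58. Aqp1 stayed higher in all of them (log2 fold change 1.48 to 3.17), as did Aqp11 (1.32 to 7.17). Genes with an unadjusted p under 0.05 numbered 1 with no filter (Aqp11), 1 with array weights (Aqp11) and 0 to 2 when a library was left out, with 2 (Aqp1 and Aqp11) without Trf1+/+ replicate 3 and 1 (Aqp2) without Trf1flox/flox replicate 3. Over all genes the share under 0.05 was 3.39% with no filter and 4.1% with array weights. It was 7.37% without Trf1+/+ replicate 3 and 2.7% without Trf1flox/flox replicate 3. Genes whose groups did not overlap numbered 1 with no filter (Aqp7, which was then included), beside 8.59% of all genes. They numbered 0 to 3 when a library was left out. Without Trf1+/+ replicate 3 there were 3 (Aqp1, Aqp11 and Fxyd2), beside 25.5% of all genes. Without Trf1flox/flox replicate 1 there were 2 (Aqp3 and Atp1b1), beside 15.3% of all genes. The median log2 fold change of the 7 genes was 0.03 without the library labelled Trf1+/+ replicate 1, -0.01 and -0.08 without Trf1flox/flox replicates 2 and 3, and -0.17 with array weights. Log2 fold changes turned with upper quartile scaling for Atp1b1 (0.0146) and Fxyd2 (0.0282), and with array weights for Aqp2 (-0.17), Aqp6 (-0.74) and Fxyd2 (0.0431). With a library left out they ranged from -4.64 to 0.0417 for Aqp3, from -1.55 to 3.36 for Aqp6 and from -0.65 to 0.0327 for Fxyd2. The Aqp6 change was -1.55 without the library labelled Trf1+/+ replicate 1, -1.30 without Trf1flox/flox replicate 2 and -0.44 without Trf1flox/flox replicate 3. The cause was not tested. The fit with no variance trend, added after the data were seen, changed no call but gave larger standard errors for Atp1b1 and Fxyd2. Upper quartile scaling moved the median of all tested genes from 0.20 to 0.44 on the log2 scale. No paired analysis was possible because the labels give no replicate numbers that the groups share. With 3 libraries a group, and each gene at the floor in up to 3 of 6, the interval of each tested aquaporin includes 0 and spans several log2 units.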

Other observations

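In 2 instances a pair of the genes lay close together in the genome and differed in pattern. Aqp2 and Aqp6 lie on the plus strand of chromosome 15, with 16852 bases between them. Aqp2 was highest in Trf1flox/flox replicate 1 with 16844 normalized counts, where Aqp6 was at 0, and Aqp6 was highest in Trf1flox/flox replicate 2 with 632. Aqp7 and Aqp3 lie on the minus strand of chromosome 4, with 44582 bases between them. Aqp7 was highest in Trf1flox/flox replicate 2, with 66 reads, the library in which Aqp3 had none.

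The number of the 8 genes at the floor of 3 reads was 4, 2 and 2 in Trf1+/+ replicates 1, 2 and 3 and 1 in each Trf1flox/flox library. The share of all tested genes at that floor was 34.4%, 11.2% and 8.04% in Trf1+/+ and 8.76%, 20.0% and 2.48% in Trf1flox/flox libraries.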
